A study of Mus musculus with 8 samples.

Results

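Genes of the PI3K, AKT and mTOR pathway were examined for chromatin peaks of the transcription factor KLF13. The 41 genes were chosen by symbol to cover the core of the pathway, from receptors and lipid kinases to mTOR and its regulators, and a peak belonged to a gene when the annotation of the deposited peak list gave it that symbol. Of the 41 genes, 28 had an assigned peak, with 30 peaks among them, out of 9506 peaks and 7800 genes in the whole list. The material was HT22, an immortalised mouse hippocampal neuronal line that stably carried the biotin ligase BirA. Both kinds of library came from cells 24 h after transfection with the pTO-Klf13Bio plasmid, which makes KLF13 in a form that BirA biotinylates: 4 libraries of DNA pulled down with streptavidin (chromatin streptavidin precipitation, ChSP) and 4 input libraries without pulldown. Every library thus shares BirA and the transfected KLF13, which adds to any made by the cells themselves, and a streptavidin pulldown without tagged KLF13 is not among the libraries.

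PI3K enzymes phosphorylate membrane inositol lipids when insulin, growth factor or neurotrophin receptors are engaged. The lipid product recruits PDK1 and AKT to the membrane, and AKT then restrains GSK3 and the TSC complex, so that RHEB can switch on mTOR complex 1 and its S6 kinases. In neurons this route supports survival, protein synthesis, axon growth and synaptic plasticity, while AMPK, sestrins and DDIT4 hold it back under energy or nutrient stress. KLF13 is a zinc finger protein of the KLF and Sp family, whose members bind GC-rich GC boxes and CACCC boxes.

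The peak list gives one value per peak over the 8 libraries, so no value per library can be shown, no replicate error is known, and no difference in fold between genes below carries a test. The fold is read as the authors' linear ratio of ChSP over input, from the order of the columns of a standard peak file, since the column carries no name of its own, and each p and adjusted p is the authors' value for a single peak. A promoter peak was one within 1 kb of the transcription start site (TSS) to which the annotation assigned it. Coordinates are on GRCm38. Read depth is unknown, and peak edges fall on a grid of 100 bp.

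All 28 genes with an assigned peak had it at a promoter, which was 68.3% of the 41 pathway genes (exact 95% binomial interval 51.9 to 81.9, counting error only), against 30.9% of 21900 protein-coding genes. A peak that overlapped the TSS was present at 24 of the 41 genes (58.5%, interval 42.1 to 73.7), against 25.8% of protein-coding genes. The genes were chosen with earlier results of these data known, which these intervals do not cover. With any assigned peak the count was again 28 of 41, against 33.6% of protein-coding genes. The 13 genes without an assigned peak were Pik3ca, Pik3cg, Pik3r3, Pik3c3, Insr, Gsk3b, Phlpp1, Mlst8, Deptor, Tsc2, Rps6kb2, Ddit4 and Sesn2. Every role in the pathway had at least 1 gene with a promoter peak, and only the LKB1 and AMPK kinases had one at each of their genes, 3 of 3.

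**Figure D1:**
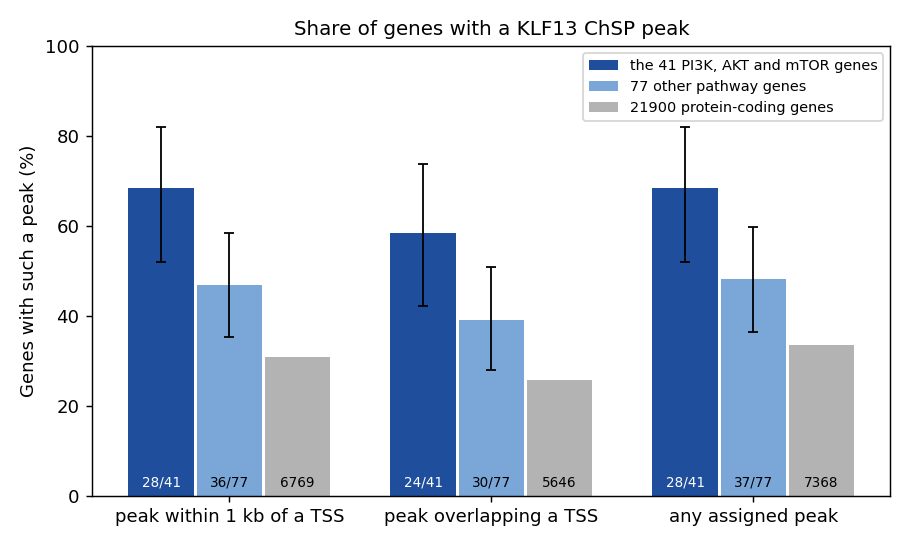
Share of genes with a KLF13 ChSP peak (y axis, percent) under 3 definitions of a peak (x axis), for the 41 pathway genes, for 77 other genes of the same pathway and for 21900 protein-coding genes. Error bars are exact 95% binomial intervals, for counting error only, and the numbers inside the bars are counts. A peak within 1 kb of a TSS was present at 68.3% of the pathway genes and 30.9% of protein-coding genes.

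Where a gene had a promoter peak, its fold was spread across the range of the whole list. The median of the highest promoter fold per gene was 25.6 over the 28 pathway genes (quartiles 18.9 and 37.0, range 5.37 to 64.0), against 22.9 over 6769 protein-coding genes with a promoter peak (quartiles 17.1 and 31.1). Of the 28 genes, 11 (39.3%) lay in the top quartile of promoter folds, against 27.0% of the protein-coding genes, and 6 (21.4%) lay in the lowest quartile, against 22.7%. With 28 genes these shares rest on few counts.

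**Figure D2:**
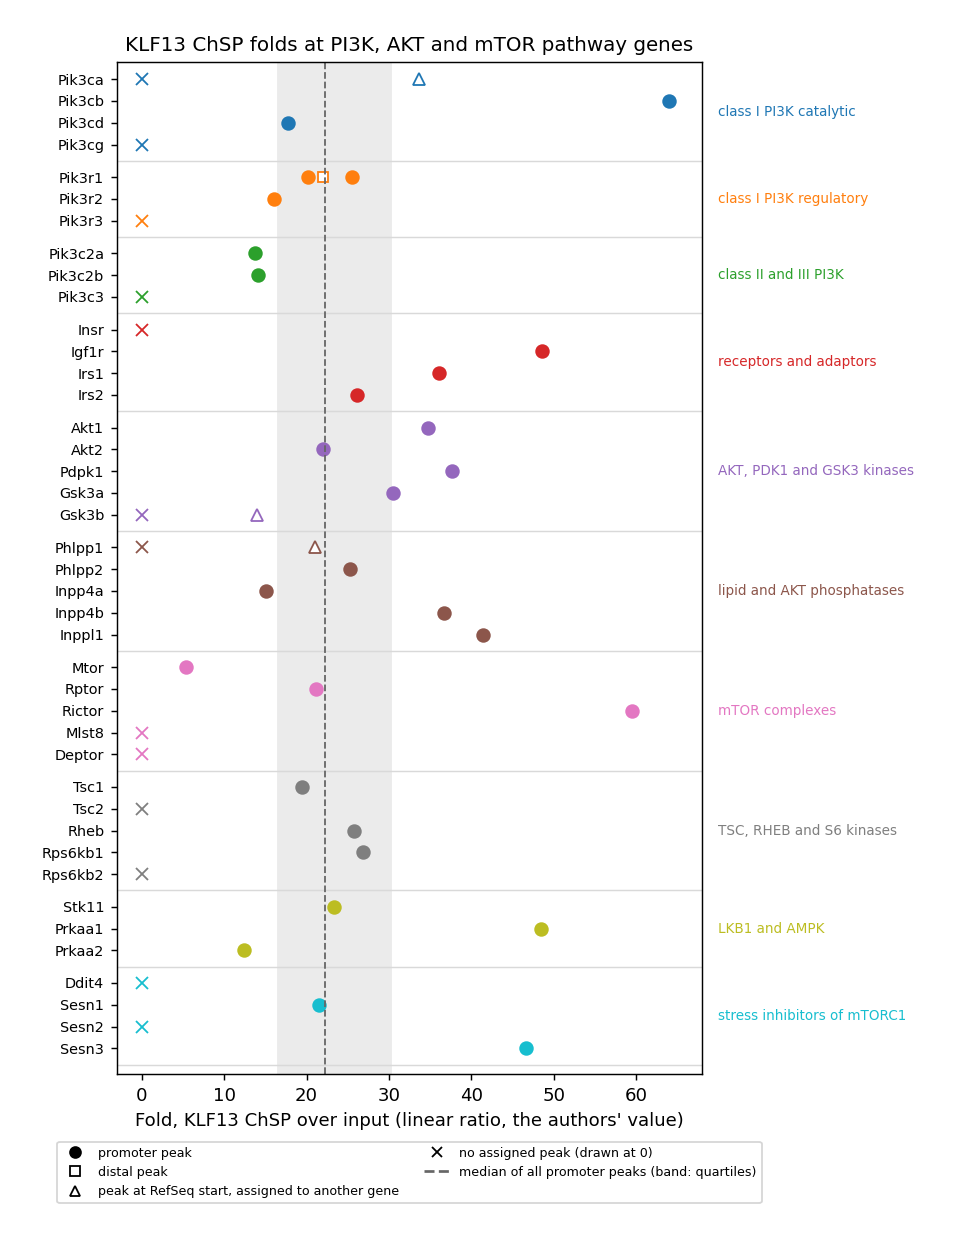
Fold of KLF13 ChSP over input (x axis, linear ratio) for each of the 41 pathway genes (rows), grouped by role. Filled circles are promoter peaks, the open square is the distal Pik3r1 peak, open triangles are peaks at the RefSeq start of Pik3ca, Gsk3b and Phlpp1 that carry another gene's name, crosses drawn at 0 mark genes without an assigned peak and are no measured fold, and the dashed line and band give the median (22.2) and quartiles (16.5 and 30.3) of all promoter peaks; Pik3cb and Rictor lie farthest to the right and Mtor farthest to the left.

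The start regions of 4 genes are shown because they span the range of the data: Pik3cb and Rictor had the highest promoter folds, Mtor the lowest, and Pik3ca no assigned peak. Each run is the 250 bases before the RefSeq start on the gene's own strand (RefSeq, GRCm38.p6), at chr9:99140212-99140461 (minus strand) for Pik3cb, chr15:6708131-6708380 (plus) for Rictor, chr4:148448332-148448581 (plus) for Mtor and chr3:32396815-32397064 (plus) for Pik3ca. Capitals mark matches, on either strand, to the GC box GGGCGG, the CACCC box CACCC or the KLF and Sp core CCNCNCCC. These patterns overlap one another, so one stretch can be counted under more than one of them.
Pik3cb: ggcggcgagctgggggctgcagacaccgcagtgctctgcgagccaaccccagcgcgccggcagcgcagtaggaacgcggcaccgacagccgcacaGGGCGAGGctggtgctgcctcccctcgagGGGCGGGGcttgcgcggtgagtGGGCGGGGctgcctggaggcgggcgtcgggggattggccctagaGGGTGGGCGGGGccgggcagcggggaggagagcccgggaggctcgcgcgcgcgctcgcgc
Rictor: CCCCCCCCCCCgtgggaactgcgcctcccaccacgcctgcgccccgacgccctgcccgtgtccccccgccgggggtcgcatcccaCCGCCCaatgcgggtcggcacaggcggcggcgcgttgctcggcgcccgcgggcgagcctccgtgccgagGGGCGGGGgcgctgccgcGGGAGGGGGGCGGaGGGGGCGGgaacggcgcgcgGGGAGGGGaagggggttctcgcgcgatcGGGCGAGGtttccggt
Mtor: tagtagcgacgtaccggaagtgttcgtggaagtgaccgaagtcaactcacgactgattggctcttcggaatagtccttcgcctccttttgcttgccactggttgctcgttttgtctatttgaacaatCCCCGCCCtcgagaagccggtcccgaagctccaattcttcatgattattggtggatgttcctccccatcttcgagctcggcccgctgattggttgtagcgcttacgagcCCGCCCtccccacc
Pik3ca: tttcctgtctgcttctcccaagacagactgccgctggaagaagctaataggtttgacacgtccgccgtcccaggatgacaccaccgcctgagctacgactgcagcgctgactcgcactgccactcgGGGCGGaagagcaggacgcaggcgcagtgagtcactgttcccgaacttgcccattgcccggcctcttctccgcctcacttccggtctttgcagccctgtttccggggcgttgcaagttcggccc

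The RefSeq start of Pik3cb lies upstream of the TSS that the peak list assigns to it. All 250 bases shown for Pik3cb and for Rictor lay inside their peaks. The Pik3cb run was 78.0% G or C, with 32 CpG dinucleotides, 3 GC boxes, 1 CACCC box and 4 matches to the core. The Rictor run was 81.2% G or C, with 40 CpG, 4 GC boxes, no CACCC box and 10 matches to the core. The Mtor run held 54.4% G or C, 19 CpG, 2 GC boxes and 1 match to the core, and none of it lay inside the Mtor peak, which began 19 bp after the start. The Pik3ca run held 61.6% G or C, 19 CpG and 1 GC box, and its last 64 bases lay inside a peak that is described below. A match is only a stretch of letters and does not show binding.

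Among the catalytic subunits of class I PI3K, Pik3cb stood highest. Pik3cb (ENSMUSG00000032462), which encodes p110 beta, had a fold of 64.0 in a 1000 bp peak over its TSS at chr9:99139601-99140600 (the authors' p = 2.96e-29, adjusted p = 1.19e-24). That fold ranked 29 among 7599 promoter peaks. Pik3cd, which encodes p110 delta, best known from leukocytes, had a fold of 17.7 in a 500 bp peak at chr4:149675801-149676300 (the authors' p = 2.64e-13), below the promoter median. The TSS assigned to that peak, at 149676089, is internal, since the RefSeq gene on the minus strand begins at 149702566. That internal TSS is itself a RefSeq start. Pik3cg, encoding p110 gamma of leukocytes, had no peak within 1 kb of the gene.

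Pik3ca, which encodes p110 alpha, carried no peak under its own name, yet a peak lay over its RefSeq start. This peak, at chr3:32397001-32397900, had a fold of 33.7 (the authors' p = 8.1e-19), higher than or equal to 81.9% of promoter peaks. The annotation gives it as distal intergenic and assigns it to Zmat3, at -31.3 kb from the TSS of that gene. Across the whole list, 86 of 1907 peaks (4.51%) beyond 1 kb of their assigned TSS lay within 1 kb of the RefSeq start of a protein-coding gene.

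Regulatory subunits, which hold the catalytic subunits inactive until a receptor is engaged, had moderate folds. Pik3r1, which encodes p85 alpha and, from internal starts, shorter isoforms, was the only one of the 28 genes with more than 1 assigned peak (3.57% of them, against 16.0% of protein-coding genes with a peak). Its peak over the upstream TSS, at chr13:101768001-101768600, had a fold of 20.2 (the authors' p = 6.78e-13). Another, over an internal TSS at chr13:101694401-101694800, had a fold of 25.5 (the authors' p = 2.3e-09), and another lay in intergenic DNA 33284 bp upstream with a fold of 22.0 (the authors' p = 4.38e-08). The 3 folds were close to one another and to the promoter median of 22.2. Pik3r2, encoding p85 beta, had a fold of 16.0 in a 400 bp peak, and Pik3r3, encoding p55 gamma, had none.

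The class II and III enzymes made up the role with the lowest median fold, 13.9. Pik3c2a and Pik3c2b, class II kinases that act in endocytosis and membrane traffic, had folds of 13.8 and 14.1, both in the lowest quartile of promoter peaks. Their p-values differed widely (the authors' p = 1.01e-06 for Pik3c2a and 1.37e-13 for Pik3c2b), as did the widths, 300 and 1000 bp. Pik3c3, the class III kinase of autophagy and endosomes also called VPS34, had none.

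Upstream of PI3K, the receptor Igf1r and both adaptors had peaks. Igf1r (ENSMUSG00000005533), the receptor for insulin-like growth factors, had a fold of 48.6 in a peak 1800 bp wide at chr7:67951101-67952900 (the authors' p = 2.07e-25, adjusted p = 2.46e-21), at or above 96.5% of promoter folds. The insulin receptor gene Insr had no assigned peak and none within 1 kb of the gene. Irs1 and Irs2 encode the adaptors that link these receptors to PI3K. Irs1 had a fold of 36.1 at chr1:82291401-82292000 (the authors' p = 1.57e-23), in a peak that reached only 38 bp past the TSS and lay almost wholly upstream. Irs2 had a fold of 26.1 at chr8:11008101-11010000 (the authors' p = 7.57e-19), in the widest of these peaks, 1900 bp, centred at -620.5 bp from the assigned TSS. The RefSeq start of Irs2, at 11008929, lies upstream of that TSS, at 11008430, and so nearer the centre of the peak.

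The kinases that act on and below the lipid signal had folds at or above the promoter median, apart from Akt2 just under it and Gsk3b without an assigned peak. Pdpk1, which encodes the PDK1 kinase that activates AKT, had a fold of 37.6 at chr17:24141001-24141900 (the authors' p = 2.1e-26). The TSS assigned to the Pdpk1 peak, at 24141594, is internal, since the RefSeq gene on the minus strand begins at 24155619. That internal TSS is itself a RefSeq start. Akt1 had a fold of 34.8 in a 1200 bp peak at chr12:112673501-112674700 (the authors' p = 6.93e-20). Akt2, the isoform tied to insulin-stimulated glucose uptake, had a fold of 22.0 in a 600 bp peak at chr7:27591501-27592100 (the authors' p = 9.89e-12). Gsk3a, one of the kinases that AKT inhibits, had a fold of 30.5 at chr7:25237201-25238000 (the authors' p = 3.04e-20).

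Its paralogue Gsk3b had no peak under its own name. A peak at chr16:38089401-38090100, inside Gsk3b and 400 bp from its RefSeq start, had a fold of 14.0 (the authors' p = 4.48e-08). It is assigned to BC031361, a gene on the opposite strand whose start lies 259 bp from that of Gsk3b. The Gsk3b promoter thus had a peak beside it, with a fold less than that of Gsk3a.

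Phosphatases that oppose the pathway ranged from low to high. Inppl1, which encodes the lipid phosphatase SHIP2 and starts 9 bp from the gene model Gm10602 on the opposite strand, had a fold of 41.4 at chr7:101837501-101838200 (the authors' p = 3.44e-21), at or above 91.6% of promoter folds. The related Inpp4a and Inpp4b, whose products remove another phosphate from the lipid signal, had folds of 15.1 and 36.7. Inpp4b combined that high fold with a weak p for its rank (the authors' p = 5.98e-09): its fold was at or above 86.6% of promoter folds, while only 22.7% of promoter peaks had a p as large or larger. Phlpp2, one of the phosphatases that dephosphorylate AKT, had a fold of 25.3 in an 1100 bp peak at chr8:109868301-109869400 (the authors' p = 1.83e-20).

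Phlpp1 repeated the pattern of Gsk3b. An 1800 bp peak at chr1:106171501-106173300 covered its RefSeq start with a fold of 21.0 (the authors' p = 6.36e-19). It is assigned to Gm20753, a gene model on the opposite strand that starts 345 bp away. Counting any peak within 1 kb of a RefSeq start, whatever gene it is assigned to, 31 of the 37 pathway genes with a start in the promoter table had one (83.8%), against 32.9% of 17492 protein-coding genes. The 3 genes gained in this way were Pik3ca, Gsk3b and Phlpp1. The 6 with no peak near a start were Pik3cg, Pik3r3, Mlst8, Tsc2, Ddit4 and Sesn2, and Pik3c3, Insr, Deptor and Rps6kb2 were not in the table. The genes missing from the table had no assigned peak, and 28 of the 37 in it had an assigned promoter peak. Part of the rise from 28 of 41 (68.3%) thus comes from the smaller set of genes.

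Within the mTOR complexes the folds covered nearly the whole range seen. Rictor (ENSMUSG00000050310), the defining subunit of mTOR complex 2, had a fold of 59.5 in a 1300 bp peak at chr15:6707801-6709100 (the authors' p = 5.37e-28, adjusted p = 1.46e-23), which ranked 64 among promoter peaks. Rptor, the defining subunit of mTOR complex 1, had a fold of 21.1 at chr11:119603001-119603800 (the authors' p = 7.79e-18), in a peak that began 96 bp after the TSS. Mtor (ENSMUSG00000028991), the kinase of both complexes, had a fold of 5.37 in a 200 bp peak at chr4:148448601-148448800 (the authors' p = 2.36e-06, adjusted p = 0.000621). It ranked 7593 of 7599 promoter peaks by fold. Mlst8, a subunit of both complexes, and Deptor, an inhibitor of mTOR, had no assigned peak.

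The genes between AKT and protein synthesis were more alike. Tsc1, which stabilises the TSC complex, had a fold of 19.4 at chr2:28641201-28641900 with a small p for that fold (the authors' p = 1.11e-22), the reverse of Inpp4b. Tsc2, the partner that inactivates RHEB, had no peak within 1 kb of the gene, although its RefSeq start lies 55 bp from that of the DNA repair gene Nthl1 on the other strand. Rheb, the GTPase that activates mTOR complex 1, had a fold of 25.8 at chr5:24841801-24842700 (the authors' p = 4.08e-12). Rps6kb1, encoding the S6 kinase that phosphorylates ribosomal protein S6, had a fold of 26.9 in a peak beginning 107 bp after its TSS (the authors' p = 5.06e-13), and its paralogue Rps6kb2 had none.

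The energy-sensing kinases all had promoter peaks. Prkaa1 (ENSMUSG00000050697), one of the catalytic subunits of AMPK, had a fold of 48.4 at chr15:5143401-5144500 (the authors' p = 9.92e-22, adjusted p = 4.23e-18). Prkaa2, the other, whose start is also that of the gene model Gm36893 on the opposite strand, had a fold of 12.4 at chr4:105109301-105110200 (the authors' p = 7.17e-13), so the paralogues lay at or above 96.3% and 9.75% of promoter folds. Stk11, which encodes LKB1, the kinase that activates AMPK, had a fold of 23.3 at chr10:80115601-80116400 (the authors' p = 1.41e-14).

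Of the stress-induced inhibitors of mTOR complex 1, the sestrin genes Sesn3 and Sesn1 had peaks. Sesn3 had a fold of 46.6 at chr9:14276001-14276900 (the authors' p = 4.02e-22), and Sesn1 a fold of 21.5 at chr10:41887101-41887800 (the authors' p = 6.29e-20). The Sesn1 peak lies over an internal TSS, at 41887439, while the RefSeq gene begins at 41810574. That internal TSS is itself a RefSeq start. Sesn2, whose product senses leucine, and Ddit4, which is induced by hypoxia and glucocorticoids and acts through the TSC complex, had no peak within 1 kb of the gene.

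Among paralogues, Insr, Rps6kb2, Pik3r3, Pik3cg and Sesn2 had no assigned peak while at least one relative did. Gsk3b, Phlpp1 and Pik3ca lacked one by name only, since each had a peak within 1 kb of its RefSeq start. Both had an assigned peak in Akt1 and Akt2, Irs1 and Irs2, Prkaa1 and Prkaa2, Inpp4a and Inpp4b, and Pik3c2a and Pik3c2b. Without replicate values none of these differences in fold could be tested, and a gene without a listed peak had no region past the authors' threshold (the largest listed p was 9.99e-06), which does not show that KLF13 was absent.

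The 29 promoter peaks of the pathway genes sat on the start site as other promoter peaks did. Of them, 25 (86.2%) overlapped the TSS and 4 (13.8%), at Mtor, Rptor, Rps6kb1 and Pik3c2a, began downstream of it, against 78.7% and 16.2% of all promoter peaks. None ended upstream of the TSS, against 5.05% of all promoter peaks. The median centre was 112 bp downstream, against 118 bp for all promoter peaks, and the median width was 800 bp, against 700 bp. The farthest began 158 bp from its TSS, and the only other peak of these genes was the one 33284 bp from Pik3r1.

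**Figure D3:**
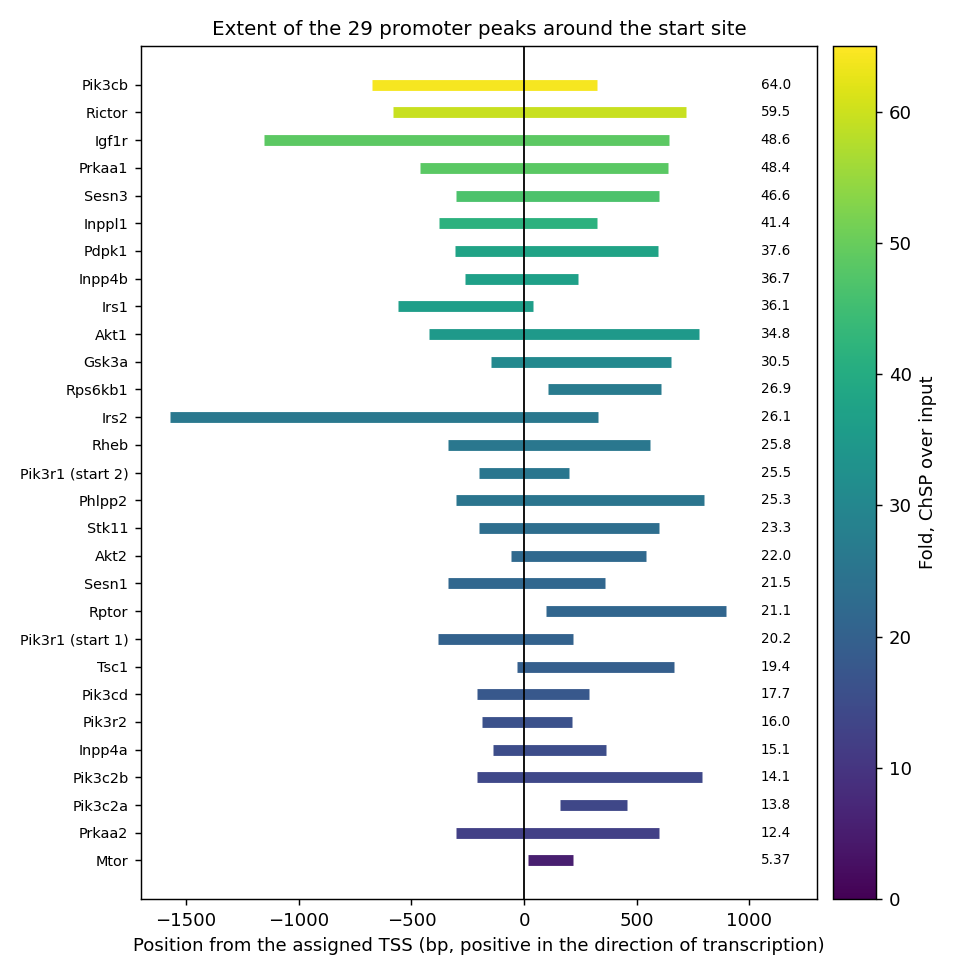
Extent of each of the 29 promoter peaks of pathway genes relative to the assigned TSS (x axis, bp, positive in the direction of transcription), one row per peak, sorted and coloured by fold, with the fold printed at the right. Most bars cross 0, the peaks at Mtor, Rptor, Rps6kb1 and Pik3c2a begin after it, and the Irs2 and Igf1r peaks reach farthest upstream.

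Fold and p named the same leading genes, Pik3cb and Rictor, but ordered the peaks below them differently. Across the 29 promoter peaks, the Spearman correlation of fold with the negative logarithm of p was 0.69, and that of width with the negative logarithm of p was 0.68, against 0.76 and 0.77 over all 7599 promoter peaks. These are correlations across peaks, which share the same libraries and are not replicates. Pik3cb and Rictor were first and second by both fold and p, with Pdpk1 next by p and Igf1r next by fold. Tsc1 had a p smaller than or equal to that of 88.2% of promoter peaks at a fold that only 37.8% were at or below.

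**Figure D4:**
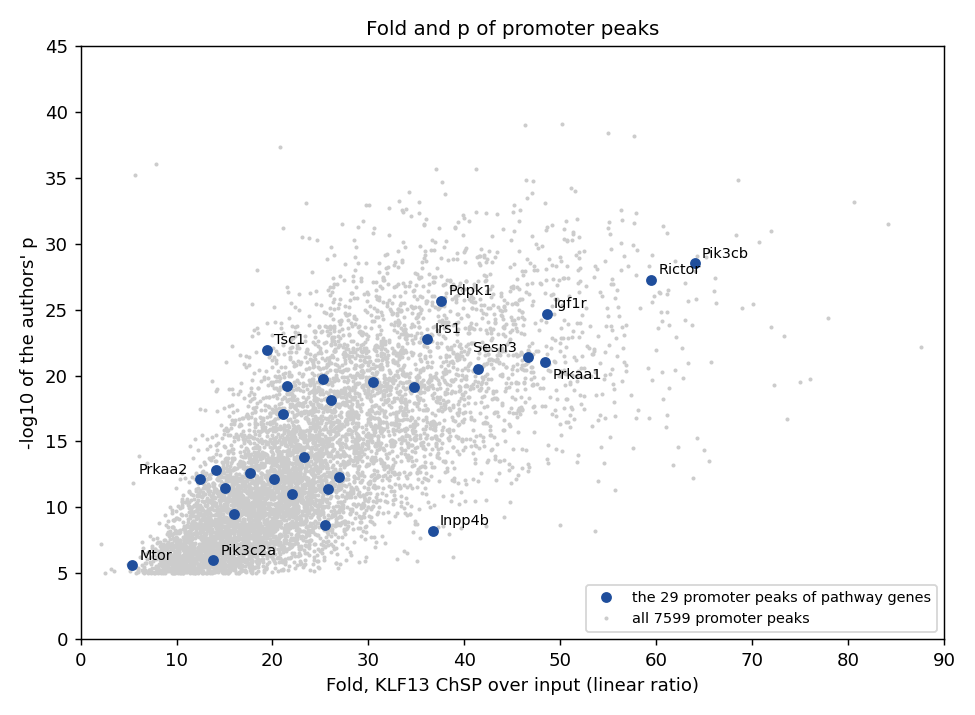
Fold of ChSP over input (x axis, linear ratio) against the negative log10 of the authors' p (y axis) for all promoter peaks (grey) and the 29 of pathway genes (blue), with 4 of the grey peaks beyond the top of the axis. Pik3cb and Rictor lie at the upper right and Mtor at the lower left, Inpp4b has a high fold with a modest p, and Tsc1 the reverse.

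Promoter sequence was described for the 37 genes in the RefSeq promoter table, over windows of 250 bases before and 50 after the start, using the window with the most CpG where a gene had several. Of the 28 genes with a promoter peak, 25 had that window inside or overlapping their own peak. These 28 windows had a median of 69.7% G or C and 32 CpG (range 12 to 52), and the 9 windows of genes without one had 63.3% and 23 CpG (range 5 to 42). Over protein-coding genes the medians were 67.7% and 28 CpG for the 5360 with a promoter peak, and 52.7% and 7 CpG for the 12132 without. The 9 include Pik3ca, Gsk3b and Phlpp1, which had a peak under another name. Pathway promoters without a peak were thus richer in CpG than most other promoters without one, and Pik3cg, with 5 CpG, was the exception. Prkaa1 had the most CpG, 52, followed by Igf1r with 48.

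The KLF and Sp core CCNCNCCC was found in 26 of the 28 windows with a promoter peak (92.9%) and in 7 of the 9 without (77.8%), against 57.0% of all 17492 windows of protein-coding genes. The GC box GGGCGG was found in 25 of 28 (89.3%) and 5 of 9 (55.6%), against 48.1% of all windows. The CACCC box was found in 19 of 28 (67.9%) and 7 of 9 (77.8%), against 58.8%, but in the 250 bases before the start the order of the groups turned, with 17 of 28 (60.7%) and 4 of 9 (44.4%), against 53.4% of all windows. Among protein-coding genes with a promoter peak the shares were 81.8% for the core, 79.3% for the GC box and 66.8% for the CACCC box. For the CACCC box in the 250 bases before the start, their share was 61.7%. Rptor and Rps6kb1 had a peak but no match to any of the 3 patterns in the window, and both peaks began after the window ended. Pik3r1, with 11 matches to the core, and Rictor and Irs2, with 10 each, had the most.

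The CpG tertiles covered the 37 pathway genes in the promoter table. Those missing from it had no assigned peak, which raises the share among pathway genes. CpG content moved with the share of protein-coding genes that had a promoter peak. In the top tertile of windows by CpG (23 to 67 CpG), 20 of 25 pathway genes (80.0%) had one, against 66.0% of 5541 protein-coding genes. In the middle tertile (7 to 22 CpG) it was 8 of 11 (72.7%), against 25.2% of 6064, and in the lowest tertile 0 of 1, against 2.97% of 5887. With the window at the 5'-most start the lowest tertile held 3 pathway genes, of which 2 had a promoter peak (66.7%), against 4.78% of protein-coding genes. The pathway genes were long, with a median of 63.0 kb, against 17.1 kb for protein-coding genes. By tertiles of length, from short to long, 1 of 4, 5 of 6 (83.3%) and 22 of 31 (71.0%) pathway genes had a promoter peak, against 15.0%, 28.4% and 49.3% of protein-coding genes. Among the pathway genes themselves, the median length was 60.7 kb with a promoter peak and 69.0 kb without. Among genes in the top tertile by both CpG and length, 15 of 18 pathway genes had one (83.3%), against 76.1% of 2683 protein-coding genes. Among all other genes in the promoter table it was 13 of 19 pathway genes (68.4%), against 22.4% of 14809 protein-coding genes. These other genes include the lowest CpG tertile, with 1 pathway gene and 5887 protein-coding genes, so the sides of this comparison differ in CpG content. The part of CpG content and gene length in the overall share was not tested.

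**Figure D5:**
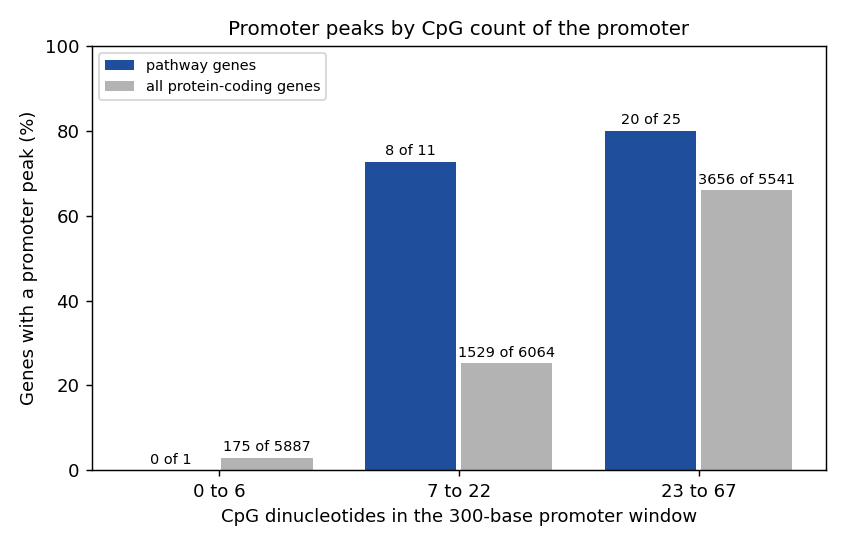
Share of genes with a promoter peak (y axis, percent) by tertiles of the CpG count in the 300-base promoter window (x axis), for the 37 pathway genes and all protein-coding genes in the promoter table, with counts above the bars. The pathway genes missing from that table had no assigned peak. The share rises with CpG count among protein-coding genes, to 66.0% in the top tertile, where 80.0% of the pathway genes had a peak.

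The wider pathway was covered by 77 further genes, of which 36 had a promoter peak (46.8%, exact 95% binomial interval 35.3 to 58.5), against 30.9% of protein-coding genes. The median of the highest promoter fold per gene was 23.9 over these 36 genes. The 6 highest were the docking adaptor gene Gab2 with a fold of 46.2, the cap-binding factor gene Eif4e with 45.7, Seh1l, a subunit of the GATOR2 complex and of the nuclear pore, with 40.7, the translation scaffold gene Eif4g1 with 40.0, the mTOR complex 2 subunit gene Prr5 with 38.6 and the transcription factor gene Foxo3 with 33.1. The PI3K genes Pik3c2g, Pik3r4, Pik3r5 and Pik3r6 had no assigned peak. The 77 genes were grouped by function into 16 groups of 2 to 14 genes after the values were seen. All genes had a promoter peak in 2 groups, none in 3, and some in 11. All 6 translation genes (Eif4e, Eif4g1, Eif4b, Eif4ebp1, Eif4ebp2 and Rps6) had a promoter peak, as did 6 of 7 genes for receptor adaptors and insulin-like growth factor ligands with the receptor gene Igf2r, and 3 of 4 FOXO genes. None of the 5 Ragulator genes, whose products anchor mTOR complex 1 at the lysosome, had an assigned peak. Their median gene length was 5.22 kb, and in the shortest tertile of protein-coding genes 15.0% had a promoter peak. The other groups at 0 were the inositol 5-phosphatases, with 3 genes, and the TSC partner Tbc1d7 with Rhebl1 and Tbc1d4. Each of these had a median gene length of 19.8 kb. Groups with a promoter peak had median lengths from 5.65 to 111.0 kb, and the part of length in these counts was not tested. In the largest group, the GATOR and KICSTOR complexes and amino acid sensors, 4 of 14 genes had a promoter peak.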

How the data were processed

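KLF13 ChSP and input DNA were sequenced in HT22 cells, with 4 libraries each. The labels number the libraries but do not call them separate cultures. GRCm38 is the build in the submitters' processing notes, which also list, without saying what each tool did, ChIPseeker 1.16.1, HOMER 4.9.1, the aligner BWA 0.7.17-r1188 and FastQC 0.11.3. PePr appears as the peak caller in how the deposited list is named. The fold, a linear ratio, and the p-value and adjusted p-value of each peak were computed by the authors and deposited in one list over all libraries, along with peak width and distance to the TSS. How libraries were scaled is not given in the labels or headers, and read depth is unknown.

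Genes were matched to the list by symbol, and the background by gene identifier to the 21900 protein-coding genes of a RefSeq table on GRCm38.p6. Motifs were counted on both strands. No test between genes was made. The pathway genes and lists were chosen with earlier results of these data known. The named further genes were the 6 with the highest promoter fold and the first 4 in list order without a peak, and the sequences were those of the 2 highest genes, the lowest and the first without an assigned peak. The window with the most CpG, the subgroups of further genes, the tertiles of CpG and length, and the match to RefSeq starts were chosen after seeing the data. Motif and distance matching were tested on simulated data with known answers. Computation used Python 3.11.15 with scipy 1.17.1, numpy 2.4.6 and pandas 2.3.3, and figures used matplotlib 3.10.9.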

Additional observations from a re-analysis of the deposited data

How the results depend on the processing

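No paired analysis was possible because every peak has a single value across libraries, and for the same reason no library could be left out in turn. The count of pathway genes with a promoter peak was 28 at 3 kb, 23 with the 4753 peaks of smallest p (Pik3r2, Pik3c2a, Akt2, Inpp4b and Mtor dropped out), 20 with folds at or above the list's median (Pik3cd, Pik3r2, Pik3c2a, Pik3c2b, Inpp4a, Mtor, Tsc1 and Prkaa2 dropped out), 26 without the 5% widest peaks (Igf1r and Irs2 dropped out) and 24 with peaks over the TSS. It was 29 with any peak within 1 kb of either end of the gene (Pik3ca, Gsk3b and Phlpp1 came in, Pik3cd and Sesn1 dropped out, and Pdpk1 stayed only through a peak assigned to Kctd5). At RefSeq starts, a setting chosen after seeing the data, it was 31 of the 37 genes in the promoter table. The pathway genes missing from that table all lacked an assigned peak. In that order the share of protein-coding genes was 31.6%, 18.6%, 18.0%, 29.3%, 25.8%, 31.8% and 32.9%, and it was 33.2% without unnamed gene models. The median fold of the pathway genes was 25.6, 26.1, 32.6, 25.4, 25.9, 25.8 and 25.3 in the same order, and 25.5 with every promoter peak as its own value. Keeping only folds at or above the median raises that median by construction. Among the 77 further genes 23 had a promoter peak under that setting and 26 to 37 under the others. With the window at the 5'-most start, 2 of 3 pathway genes in the lowest tertile by CpG, 9 of 12 in the middle one and 17 of 22 in the top one had a promoter peak (77.3%), against 4.78%, 26.8% and 64.2% of protein-coding genes. In the 250 bases before the start the core was found in 85.7% of windows of pathway genes with a promoter peak, against 53.3% of all windows, and the GC box in 82.1%, against 44.6%.

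Depth and replicate spread are unknown, so a fold such as 5.37 at Mtor cannot be given an error, and the reads behind genes without a listed peak are not known.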

Other observations

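Some other peaks lay inside or beside pathway genes but belonged by annotation to neighbours. In Irs2, a peak at chr8:11007001-11007600 reached a fold of 26.3 at an authors' p of 1.71e-14, close to the 26.1 of the Irs2 promoter peak, and is assigned to the promoter of 9530052E02Rik. It lies 1329 bp from the RefSeq start of Irs2, but within 1 kb of the Irs2 TSS that the peak list uses, at 11008430. At the far end of Pdpk1, a peak with fold 25.9 and an authors' p of 3.48e-17 overlaps the start of Kctd5. Beyond the end of Inppl1, a peak with fold 20.7 and an authors' p of 2.42e-10 is annotated to a 3' UTR and assigned to the homeobox gene Phox2a.

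Several promoter peaks of pathway genes lie at a start that RefSeq places close to another gene on the opposite strand, so a peak there cannot be ascribed to one of the genes. The start of Rps6kb1 lies 184 bp from that of the tubulin gene Tubd1, and that of Pik3r2 lies 150 bp from that of 2010320M18Rik. Gene models on the opposite strand start 0 bp from Prkaa2, 9 bp from Inppl1, 31 bp from Pdpk1, 73 bp from Phlpp2, 91 bp from Inpp4b and 200 bp from Akt1.

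Patterns that do not belong to the KLF and Sp family were counted in the same windows. The E-box CACGTG was found in 3 of the 28 windows of pathway genes with a promoter peak (10.7%), at Irs1, Irs2 and Rheb. The share was also 10.7% in windows of protein-coding genes with a promoter peak, and 8.06% in all windows of protein-coding genes. The TATA box TATAAA was found in 0 of the 28, against 12.9% of all windows and 4.78% of windows of protein-coding genes with a promoter peak, and Gsk3b held the 1 match among all 37 pathway genes.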
